A study of Homo sapiens with 1 sample.

Results

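The miR-99/miR-100 and miR-125 families were read from 1 miRNA array. It carried RNA of DLD-1, a cell line from a human colorectal carcinoma, into which the control plasmid pLVX-NC without an insert had been brought. The study set this control against cells overexpressing the circular RNA circLONP2, and the array of those cells was not analysed here. The 9 members were the mature miRNAs hsa-miR-99a-5p, hsa-miR-99a-3p, hsa-miR-99b-5p, hsa-miR-99b-3p, hsa-miR-100-5p, hsa-miR-100-3p, hsa-miR-125a-5p, hsa-miR-125a-3p and hsa-miR-125b-5p, taken by name from the 2549 human miRNAs on the array. Each had 20 spots, spread over 2 to 4 probes, which gave 25 probes and 180 spots in all. The software had marked 4 of these spots as outliers, and they were left out. With 1 array there was no replicate and no second condition, so no condition was tested against another, and the number of arrays limits the precision. Every error given is between spots, and an SD over all spots of a miRNA also holds the differences between its probes.

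A miRNA hairpin is cut into a 5p and a 3p arm, and usually one of them, the guide, is kept in the silencing complex while the other is degraded. The guide finds its target messenger RNAs mainly through its seed, bases 2 to 8 from the 5′ end. In vertebrates the miR-99/miR-100, let-7 and miR-125 hairpins lie side by side in paralog clusters, and the 5p arm is the usual guide of all of them. The miR-99/miR-100 family is known for repressing the growth kinase mTOR, miR-125 is the vertebrate relative of the worm developmental regulator lin-4, and let-7 is known as a repressor of LIN28, HMGA2 and RAS genes.

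The 5p arms of the 2 families are shown first because each family shares 1 seed, set in capitals (RefSeq, GRCh38.p14).
hsa-miR-99a-5p: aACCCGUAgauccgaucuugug
hsa-miR-100-5p: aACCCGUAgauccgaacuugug
hsa-miR-99b-5p: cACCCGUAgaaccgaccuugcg
hsa-miR-125a-5p: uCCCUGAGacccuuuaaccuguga
hsa-miR-125b-5p: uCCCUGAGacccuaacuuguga
The seed ACCCGUA was found in no other human miRNA of the array that had a RefSeq sequence, whereas CCCUGAG was shared with hsa-miR-4319. Counted from 1 at the 5′ end, miR-99a-5p and miR-100-5p differed only by U16A, and miR-99a-5p and miR-99b-5p by A1C, U11A, U16C and U21C. miR-125a-5p has 24 bases and miR-125b-5p 22, and they were identical over the first 13 bases.

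The 3p arms carry other seeds. That of miR-99a-3p and miR-99b-3p was the same, and those of miR-100-3p and miR-125a-3p were each found in 1 miRNA of the array.
hsa-miR-99a-3p: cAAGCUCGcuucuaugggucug
hsa-miR-99b-3p: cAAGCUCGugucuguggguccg
hsa-miR-100-3p: cAAGCUUGuaucuauagguaug
hsa-miR-125a-3p: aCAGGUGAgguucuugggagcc
The hairpins of chromosome 19 are given because they hold miR-99b-3p and miR-125a-3p, the brightest members, with both mature arms in capitals.
MIR99B: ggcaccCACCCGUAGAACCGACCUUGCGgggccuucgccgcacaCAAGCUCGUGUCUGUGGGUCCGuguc
MIR125A: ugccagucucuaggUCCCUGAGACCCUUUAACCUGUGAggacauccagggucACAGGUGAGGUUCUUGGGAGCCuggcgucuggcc

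The 3 clusters differ in how tightly they are packed. On chromosome 21, MIR99A (chr21:16539089-16539169, plus strand) is followed after 658 bases by MIRLET7C (chr21:16539828-16539911), and MIR125B2 (chr21:16590237-16590325) lies a further 50325 bases away. All of them lie inside the long non-coding RNA gene MIR99AHG (chr21:16070488-16631727). On chromosome 11, on the minus strand, MIR100 (chr11:122152229-122152308), MIRLET7A2 (chr11:122146522-122146593) and MIR125B1 (chr11:122099757-122099844) span 52552 bases inside the long non-coding RNA gene MIR100HG (chr11:122028329-122422871). On chromosome 19, on the plus strand, MIR99B (chr19:51692612-51692681), MIRLET7E (chr19:51692786-51692864) and MIR125A (chr19:51693254-51693339) span only 728 bases. They lie inside the gene bounds of the protein-coding SPACA6 (chr19:51682686-51713143) and of the antisense transcript SPACA6-AS1. The gene table used here gives no exons, so exonic or intronic position was not assigned. miR-125b-5p is released by both MIR125B1 and MIR125B2, and its signal cannot be divided between chromosomes 11 and 21.

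By the scanner software's flag for each miRNA, 6 of the 9 members were detected, beside 56.8% of all human miRNAs on the array. The flag was given to 4 of the 5 guide (5p) members and to 2 of the 4 3p members. All 4 members of the chromosome 19 cluster were detected, neither arm of miR-99a was, and of miR-100 only the 5p arm was. A flag is not a high signal, which was read as brightness, the scanner signal of a spot less its local background, in the scanner's own units. In 5 of the 9 members, the mean of the brightest probe did not reach 2-fold of 12.5, the brightness that 99% of negative control spots did not exceed, as in 55.4% of all human miRNAs. These were the 3 undetected members and 2 detected ones, miR-100-5p and miR-125a-5p, and among all detected human miRNAs the share was 21.5%. Counted instead by probes with at least 0.5 of their spots well above background, 4 members were detected. No share of all human miRNAs by that rule is given, so this count has nothing to be read against. The level of 12.5 was set by 1 of the 7 negative control probes, and without it only the 3 undetected members were that close to background.

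Among the miR-99/miR-100 guides, only miR-99b-5p was clearly above the background. Its 19 spots ran from 34.0 to 46.4 with a median of 41.1, and the mean brightness was 40.5 ± 3.71 (SD over spots). Every spot was well above background, and its 2 probes, with means of 38.3 and 42.9, differed by 0.17 on the log2 scale (standard error 0.05 from the spots). miR-100-5p was dim, from 1.94 to 16.7 over 20 spots with a median of 7.85 and a mean of 8.66 ± 4.20, and no spot was well above background. Its probes had means of 5.29 and 12.0, so that the brighter one did not exceed the negative control level. miR-99a-5p was not detected, with spots from -4.36 to 3.30, a median of -0.16 and a mean of 0.068 ± 1.87. The highest miR-99a-5p spot was below the mean of either miR-100-5p probe, and the sequences differ at 1 of 22 positions.

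Of the miR-125 guides, miR-125b-5p had a mean brightness of 41.4 ± 30.8 over 19 spots, with spots from 10.6 to 85.1 and a median of 18.6. Its SD came mostly from its 2 probes, which disagreed more than those of any other detected member. The brighter probe had a mean of 72.7 ± 6.15 (SD over 9 spots), with every spot well above background. The dimmer probe had a mean of 13.2 ± 2.83 (SD over 10 spots), with no spot well above background, and the log2 difference was 2.48 (standard error 0.10). A level for miR-125b-5p therefore depends on which probe is read. miR-125a-5p had a mean of 13.9 ± 5.27 over 20 spots, which ran from 5.62 to 27.5 with a median of 12.5, and only 4 spots were well above background. The brighter miR-125b-5p probe exceeded both miR-125a-5p probes and the dimmer one lay between them, so the order of the miR-125 guides was not settled. hsa-miR-4319, the further carrier of this seed, had a mean of 23.0 ± 2.49 over 18 spots. Of these, 17 were well above background, but its brightest probe, at 24.5, did not reach 2-fold of the negative control level.

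The 3p arms held both the brightest and the dimmest members. miR-125a-3p had 20 spots from 350.4 to 1123 with a median of 677.6 and a mean of 711.9 ± 291.9, and every spot was well above background. Its 3 probes had mean values of 386.0 ± 32.5, 686.1 ± 36.2 and 1060 ± 44.6, and their spots did not overlap. miR-99b-3p was more even, with 20 spots from 71.6 to 98.9, a median of 90.8 and a mean of 88.3 ± 7.90, and its 4 probes ran only from 80.7 to 94.3. miR-99a-3p, which has the same seed and differs from miR-99b-3p at 4 of 22 positions (C9U, U10G, A14G and U21C), was not detected. Its spots ran from -3.65 to 6.67, with a median of 1.36 and a mean of 1.08 ± 2.59. miR-100-3p was not detected either, with 18 spots from -4.50 to 1.94, a median of -2.98 and a mean of -2.64 ± 1.42.

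**Figure D1:**
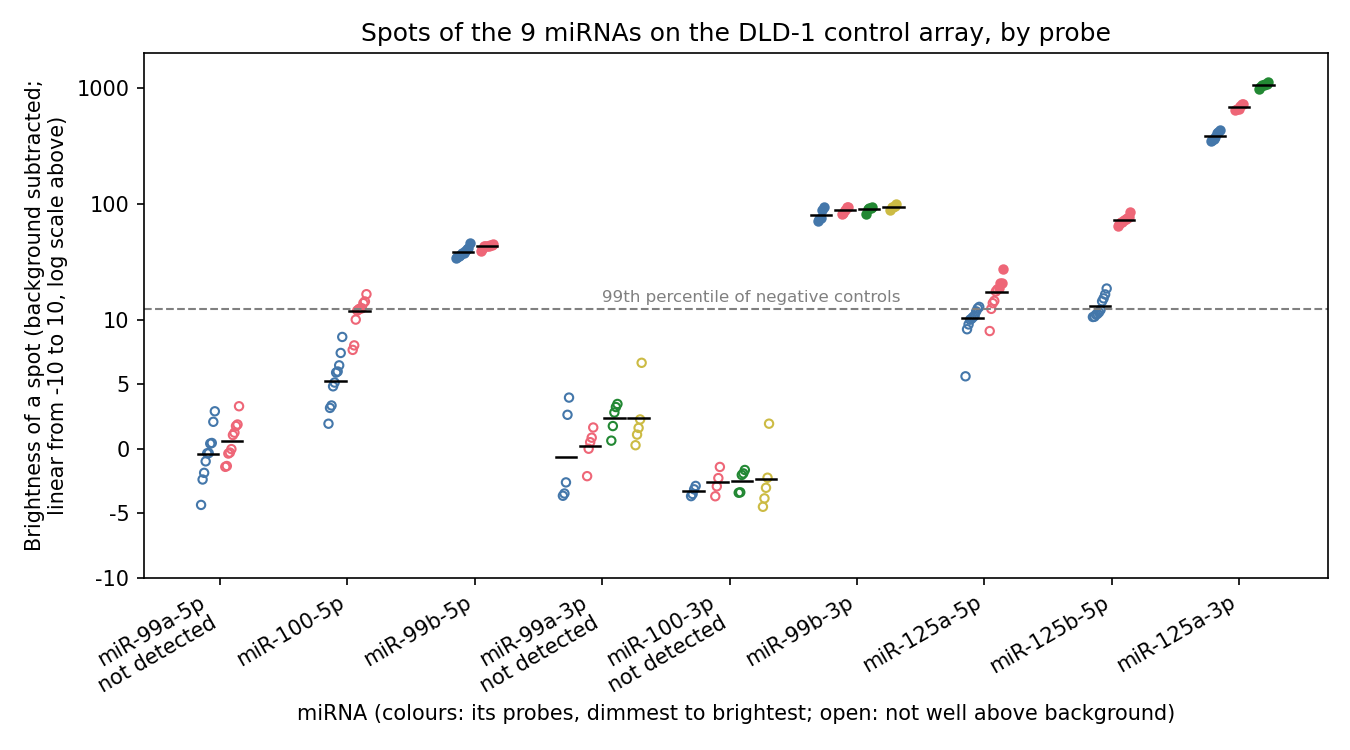
Brightness of every spot used (y axis, background subtracted, linear from -10 to 10 and log scale above) for the 9 miRNAs (x axis), with 1 colour for each probe of a miRNA and a bar at its mean. Filled points are spots well above background and the dashed line is the negative control level of 12.5, which all spots of miR-99b-5p, miR-99b-3p and miR-125a-3p exceeded and no spot of miR-99a or miR-100-3p reached.

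The arms of a hairpin come from 1 precursor, so their signals were set side by side. Probes differ in how strongly they bind, and brightness therefore orders the arms as seen on this array and does not give their amounts. Of the 4 hairpins with both arms among the members, 3 had a detected arm, and the 5p arm was counted as the brighter in 1 of them, miR-100, where neither arm had a probe mean over 12.5. The 5p arm was brighter in 63.4% of the 631 hairpin names on the array with at least 1 arm detected. For MIR125A, the 5p arm lay so close to background that its ratio to the 3p arm has only a bound. The dimmest 3p probe was at least 23.1-fold brighter than the brightest 5p probe, and every 3p spot, from 350.4 up, exceeded every 5p spot. After normexp background correction, whose offset of 50 narrows ratios, the log2 difference was -3.29, below this bound in size and of the same direction. For MIR99B, the log2 difference between the 5p and the 3p arm was -1.12 (standard error 0.03), a 2.17-fold ratio, and ran from -1.30 to -0.90 over the pairs of probes. For MIR100 no ratio is given because the 3p arm was not detected, and for MIR99A neither arm was.

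Of the 255 hairpin names with both arms detected, 65.9% had the brighter 5p arm, and miR-99b and miR-125a were among the rest. It is a description of 1 array, without a test.

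The let-7 partner of each cluster was read as context. let-7c-5p, the partner of miR-99a, had a mean brightness of 468.7 ± 136.5 over 18 spots. let-7a-5p, which MIRLET7A2 shares with hairpins on chromosomes 9 and 22, had 228.3 ± 133.3 over 19 spots. The probes of each disagreed, with means of 336.6 and 600.8 for let-7c-5p and of 105.4 and 364.8 for let-7a-5p. let-7e-5p, the partner of miR-99b, had only 10.9 ± 2.83 over 20 spots, none of them well above background. The let-7 guide was thus brighter than the miR-99/miR-100 guide in 2 of the 3 clusters, on chromosomes 21 and 11. On chromosome 19 let-7e-5p was too close to background for a ratio, and miR-99b-5p was at least 2.78-fold brighter, taken from its dimmest probe over 13.7, the dimmest detected probe that was well above background. The mean of the miR-125 guide was likewise above that of the miR-99/miR-100 guide on chromosomes 21 and 11, where it is the same miR-125b-5p. Its dimmer probe, at 13.2, also exceeded the brightest probes of miR-99a-5p and miR-100-5p, which had means of 0.58 and 12.0. That dimmer probe was itself close to background, and its spots overlapped with those of miR-100-5p, so no ratio is given. On chromosome 19 the miR-125 guide was the dimmer, and the dimmest miR-99b-5p probe was at least 2.29-fold brighter than the brightest miR-125a-5p probe. Of the let-7 3p arms, let-7c-3p and let-7e-3p were not detected, and let-7a-2-3p was not among the miRNAs on the array.

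The let-7 guides differ little in sequence, and they are shown to let their single differences from let-7a-5p be seen (A19G in let-7c-5p and U9G in let-7e-5p), again with the seed in capitals.
hsa-let-7a-5p: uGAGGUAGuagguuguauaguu
hsa-let-7c-5p: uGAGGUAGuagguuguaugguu
hsa-let-7e-5p: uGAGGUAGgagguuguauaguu
Binding of one let-7 miRNA to the probes of another was not tested, so the signals of let-7c-5p and let-7a-5p cannot be credited to 1 locus.

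The 3p arms of miR-125b are specific to their hairpins, unlike miR-125b-5p. miR-125b-2-3p, from chromosome 21, had a mean of 140.3 ± 17.0 with all 20 spots well above background, while neither arm of miR-99a, from the same host gene, was detected. miR-125b-1-3p, from chromosome 11, had a mean of 12.6 ± 10.7 over 19 spots, and its 4 probes fell into a dim pair, with means of 1.96 and 2.08, and a brighter pair, with means of 19.9 and 24.4. Its sequence differs from that of miR-125a-3p, the brightest member, at 4 of 22 positions. Binding of miR-125a-3p to its probes was not tested. Of the arms of the chromosome 21 hairpins, 3 were thus undetected, while every spot used of let-7c-5p and miR-125b-2-3p was well above background. miR-125b-5p, shared with chromosome 11, was detected too, and the signal of let-7c-5p cannot be credited to 1 locus.

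**Figure D2:**
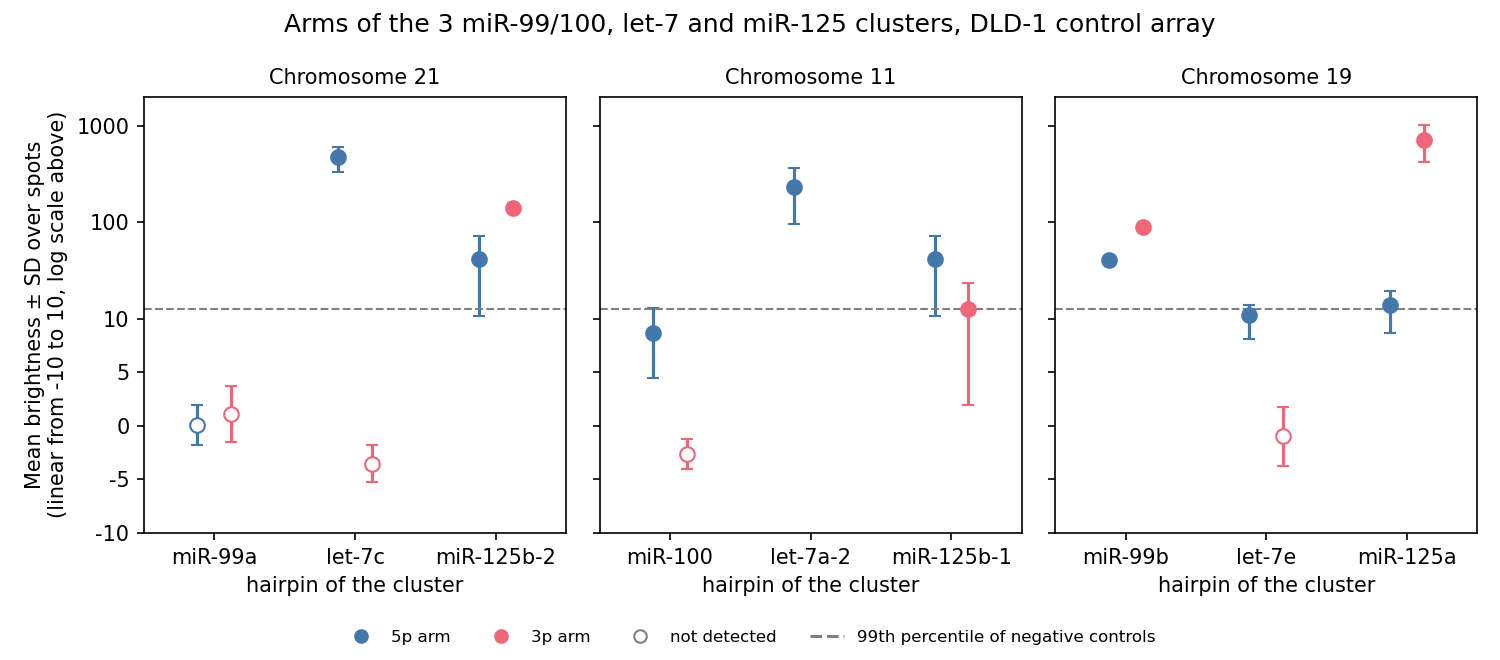
Mean brightness ± SD over spots (y axis, linear from -10 to 10 and log scale above) of the 5p arm in blue and the 3p arm in red for the 3 hairpins of each cluster (x axis). Open points were not detected, the dashed line is the negative control level, and miR-125b-5p is drawn for both of its clusters. On chromosomes 21 and 11 the brightest point is a let-7 guide at 468.7 and 228.3, and on chromosome 19 it is miR-125a-3p at 711.9. The guide drawn for chromosome 11, let-7a-5p, also comes from hairpins on chromosomes 9 and 22.

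Within the array, the log2 signal of a miRNA (mean over spots, then over probes) was set against the upper quartile of detected probes, those which had a share of 0.5 or more of spots well above background and belonged to detected miRNAs, which was a brightness of 248.8. Of the 9 members 1, miR-125a-3p, lay above it, with a log2 signal of 1.39, while 11.3% of all human miRNAs did. The other detected members had log2 signals of -1.50 for miR-99b-3p, -2.62 for miR-99b-5p and -3.02 for miR-125b-5p. Those of miR-125a-5p and miR-100-5p were -4.26 and -5.04, but they depended on how background was corrected. Normexp, whose offset narrows ratios, gave -2.07 and -2.17. It also moved members with every spot well above background, miR-99b-5p to -1.61, miR-99b-3p to -1.06 and miR-125a-3p to 1.22. How much of the change came from the offset was not tested. The median of the 6 detected members was -2.82, and that of all 1448 detected human miRNAs was -2.06. miR-125a-3p was brighter than 90.3% of the detected miRNAs and miR-99b-3p than 59.3%, against 41.2% for miR-99b-5p. No position is given for miR-125b-5p, whose probes disagreed, nor for miR-125a-5p and miR-100-5p, which were close to background.

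In this order, the spots of miR-125a-3p, miR-99b-3p and miR-99b-5p did not overlap. The spots of each later neighbour overlapped with those of the one before it. The order of miR-99b-5p and miR-125b-5p also turned with the summary, since the total signal that the software sums over probes was 14.9 for miR-99b-5p and 15.8 for miR-125b-5p.

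**Figure D3:**
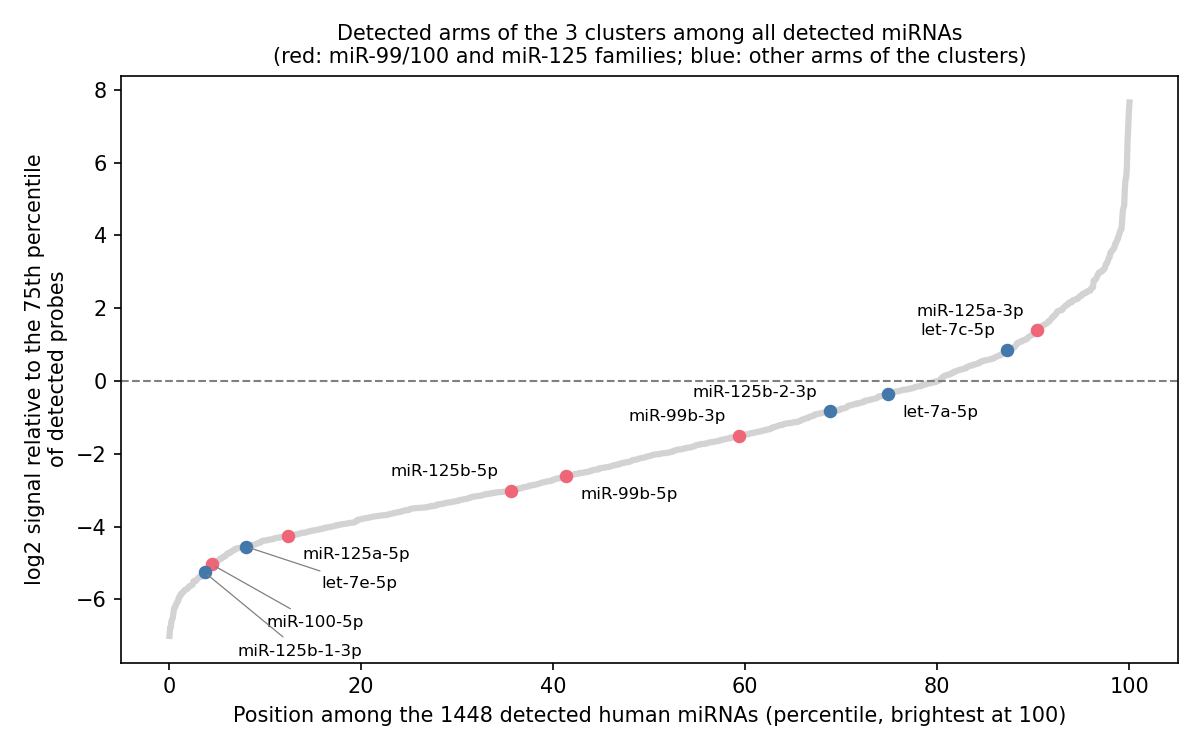
log2 signal against the upper quartile of detected probes (y axis) by the position among the 1448 detected human miRNAs (x axis, percentile), drawn as a grey line. Red points are the 6 detected members, from miR-100-5p at -5.04 to miR-125a-3p at 1.39, and blue points are the other detected arms of the clusters. The positions of miR-125a-5p, miR-100-5p, let-7e-5p and miR-125b-1-3p rest on signals close to background and have no order.

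The log2 values that the authors deposited for the same array kept fewer members apart. They were 7.95 for miR-125a-3p, 4.62 for miR-99b-3p, 3.60 for miR-125b-5p and 3.52 for miR-99b-5p. miR-125a-5p and miR-100-5p both had 2.33, the lowest value of any detected miRNA, which 183 detected miRNAs shared. The 3 undetected members had 2.32, which is 5.0 on the linear scale. A change of miR-99a, miR-100 or miR-125a-5p below these values could not be seen in the deposited table.

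Base composition and the cell of origin were read beside these results. Of the human miRNAs with a RefSeq sequence, 71.9% of the 1327 with a GC content of 50% or more were detected, and 35.3% of the 921 with less. miR-99b-5p and miR-99b-3p have a GC content of 63.6% and miR-125a-3p of 59.1%. The remaining members lie between 36.4% for miR-100-3p and 54.5% for miR-99a-3p. Of 7 markers of intestinal epithelium 5 were detected, while miR-192-5p and miR-194-5p were not. The share of all human miRNAs detected was 56.8%, and so few markers cannot be told apart from it. miR-141-3p had a mean of 3024 ± 401.1 over 20 spots. The other detected ones were far dimmer, miR-200c-3p at 85.3, miR-215-5p at 45.9, miR-375 at 34.8 and miR-429 at 30.9. Of 8 markers of liver, muscle, brain, blood and stroma 3 were detected, the neuronal miR-124-3p at 77.2 ± 19.4, the stromal miR-145-5p at 37.0 ± 5.48 and the muscle miR-133a-3p at 14.2 ± 3.33. miR-133a-3p was close to background, with only 1 of 19 spots well above it. The mean brightness of miR-99b-5p lay between those of miR-145-5p and miR-124-3p. That of miR-125b-5p did too, but its dimmer probe, at 13.2, was below miR-145-5p. The part of base composition, and of RNA bound to probes made for another miRNA, in the signals of the members was not tested.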

How the data were processed

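The array, 1 in number, was grouped by its title as DLD-1 cells with the control plasmid. The authors deposited the scanner output, in which the intensity of each spot is linear and background-subtracted by Agilent Feature Extraction 11.0.1.1, with outlier and detection flags. They also deposited log2 values of the array, quantile normalized in GeneSpring GX per the methods, and the arrays normalized together are not named. The labels describe a Cy3 dye ligated to RNA, the methods labelled cDNA, which bears on which strand was read.

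Control and outlier spots were left out, intensities under the floor of 1 took that value, and each miRNA was summarised as the mean log2 over spots, then over its probes. Standard errors come from spots. Sequences and loci came from RefSeq (GRCh38.p14), with 2248 of 2549 array names matched. The miRNAs named were the members, the other arms of their clusters, miRNAs sharing a seed with a member, and tissue markers. The members and lists were chosen with earlier results of these data known. Alternatives covered detection, background, signal column (normexp, limma 3.58.1 in R 4.3.3, offset 50, on median spot signals), scaling, outliers and summaries. Python 3.11.15, numpy 2.4.6, pandas 2.3.3 and matplotlib 3.10.9 were used, and the summary was tested on simulated data.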

Additional observations from a re-analysis of the deposited data

How the results depend on the processing

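Of 35 alternative counts, 33 stayed within 1.5 times the reported ones. Members detected ranged from 4 to 6. Members close to background were 5, and 3 without the brightest negative control probe, which lowers the level to 5.58. A wider margin of 4-fold gave 6. With normexp correction the count was 7, but its offset of 50 was added to members and negative controls alike, which makes 2-fold harder to reach. Members above the 75th percentile were 1, and 2 when the percentile was taken over all probes, because that reference is lower and the log2 signal of miR-99b-3p went from -1.50 to 0.29. For these alternative counts of members, the share of all human miRNAs is not given. The counts of hairpins and clusters by brighter arm or guide did not change under the 7 alternatives tried for each. With the deposited values this says nothing of miR-100, since both of its arms are at the lowest values of that table. Of 50 alternative values for single detected members and arm differences, 26 moved by less than the spread between spots, and 23 by more without a change of sign. After normexp correction the arm difference of miR-99b was -0.55. Spots near the negative control level limit the reading of miR-100-5p and miR-125a-5p. No paired analysis was possible because a lone array has no partner to be matched with.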
